A study of Mus musculus with 6 samples.

Results

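The genes described are 10 members of the fibroblast growth factor (FGF) family, 7 ligands (Fgf1, Fgf2, Fgf7, Fgf8, Fgf9, Fgf10 and Fgf20) and 3 receptors (Fgfr1, Fgfr2 and Fgfrl1). They were taken by name from the 27179 Entrez Gene entries of the expression table and not by their values. The RNA came from nephron progenitors, the embryonic kidney cells from which nephrons form, sorted at E16.5 by a green fluorescent protein driven from Six2 regulatory sequence. Control embryos carried Six2TGC, a transgene that expresses the fluorescent protein and Cre recombinase in Six2-expressing cells. Mutant embryos were Six2TGC;miR-17~92fl/fl, so both genotypes carried Cre and the mutants also had the miR-17~92 microRNA cluster flanked by loxP sites on both alleles. Each genotype had 3 libraries, and each library pooled sorted progenitors of 4 embryos. The labels name no strain or sex, the deletion is limited to cells that expressed Cre, and pooling hides differences between embryos.

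FGF ligands are secreted proteins that bind receptor tyrosine kinases on the cell surface together with heparan sulfate, and the receptors signal through adaptors, Ras and MAP kinases to switch on target genes, several of which encode inhibitors of the pathway. In the developing kidney, Fgf9 and Fgf20 are known to maintain nephron progenitors, Fgf8 is needed as progenitors form nephrons, and Fgf7 and Fgf10 are known for signalling to the ureteric bud. Fgfr1 and Fgfr2 act together in the kidney mesenchyme, and Fgfrl1 encodes a receptor that lacks the tyrosine kinase domain. MicroRNAs bind messenger RNAs mainly by pairing of the seed, the bases near the microRNA's 5′ end, with sites in 3′ untranslated regions (UTRs).

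The mature sequences of the deleted cluster are printed to show which sites were searched in the 10 genes. They are from RefSeq on GRCm38.p6, all from chromosome 14, plus strand, within 115043684 to 115044496. Capitals mark the seed, and the 6 microRNAs fall into 4 seed families, with miR-17 and miR-20a in one and miR-19a and miR-19b in another.
mmu-miR-17-5p: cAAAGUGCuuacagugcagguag
mmu-miR-20a-5p: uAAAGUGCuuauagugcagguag
mmu-miR-18a-5p: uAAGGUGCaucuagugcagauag
mmu-miR-19a-3p: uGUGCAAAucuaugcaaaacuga
mmu-miR-19b-3p: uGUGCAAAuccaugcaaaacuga
mmu-miR-92a-3p: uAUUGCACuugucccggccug

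Matches to these seeds were searched in the FGF genes. The longest 3′ UTR annotated for a gene (GRCm38) was searched on the transcript strand for the 7 bases that pair with the seed. This gave 4 sites in 3 members, Fgf1, Fgf2 and Fgf10, and none in the other 7. Fgf1 held 2 sites for miR-18a in a UTR of 3254 bases. Fgf2 held 1 site for miR-19 in a UTR of 5311 bases, starting at base 3630, and Fgf10 held 1 for miR-19 in 2799 bases, starting at base 940. The sites of Fgf2 and Fgf10 are shown on the transcript strand, with the matched bases in capitals (including, in Fgf2, an A that follows the 7 bases).
Fgf2 miR-19 site: cagatgtgTTTGCACAtagcatgg
Fgf10 miR-19 site: tgacttaaTTTGCACttctgcaat

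Fgfr1 had no site for any of the 4 families in 1797 bases, and neither did Fgfr2 in 1508, Fgfrl1 in 579 or Fgf20 in 594 bases. The seed match of miR-17 and miR-20a, GCACTTT, was in none of the 10 genes and in 15.0% of the 11565 tested genes with a 3′ UTR. The match of miR-18a, GCACCTT, was in 9.38% of those genes, that of miR-19, TTTGCAC, in 13.9%, and that of miR-92a, GTGCAAT, in 7.95%. A match of any of the 4 families was in 34.6% of those genes, near the 3 of 10 members. The median UTR of those genes was 1230 bases, shorter than the UTRs of all 3 members with a site. When matches to 6 of the 7 bases followed by an A were counted too, there were 7 sites in 4 members, with Fgf9 added through miR-92a, against 47.5% of tested genes with any such site. A match describes the sequence only, and no match says only that these letters are not in the annotated UTR.

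Library depth, worked out from the steps of the RPKM values (reads per kilobase of gene, scaled to library depth), ranged from 27602025 to 36134381 reads. Mitochondrial ribosomal RNA took 27.0% to 30.4% of reads in controls and 32.2% to 38.2% in mutants, and the median log2 fold change of all tested genes was -0.12, against -0.012 after median-of-ratios scaling. The precursor Mir17, which checks the labels, was covered by 31, 26 and 16 reads in the 3 controls and by 2, 0 and 0 in the 3 mutants, in the order of their replicate numbers, as are all lists of 3 values below. The host transcript of the cluster, Mir17hg, was at 45.4, 33.6 and 52.9 RPKM in controls and higher in mutants, at 259, 183 and 194 (limma adjusted p 4.93e-05). The marker Six2 stood at 83.5, 69.9 and 104 RPKM in controls and 63.5, 57.0 and 77.0 in mutants, and its groups overlapped. Summed RPKM of 11 progenitor markers, of which Eya1 was highest, was 704 to 763 in controls and 549 to 645 in mutants, with no marker at 0. Of these markers 1 was higher and 1 lower by the test used here. Xist, transcribed from the inactive X chromosome, was at 0.034 and 0.0278 RPKM in control replicates 2 and 3 and between 60.1 and 180 in the other 4 libraries. All 3 mutant libraries were among those 4, so the sex makeup of the pools was partly tied to genotype. Its part in the member values was not tested.

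One member of the family differed between genotypes by the genome-wide test. Fgfr1, the most abundant of the 10, fell by 36.1% in mutants, while Fgfr2 had nearly equal means. Among ligands Fgf10 and Fgf20 had lower means in mutants and Fgf1 a higher one, with no overlap between the 3 control and 3 mutant libraries, but none of these passed the adjusted threshold. The test was limma on log2(RPKM + 0.5) over the 13463 genes whose mean was at least 0.5 RPKM, two-sided, with Benjamini-Hochberg adjusted p under 0.05. In it 422 genes passed, 3.13% of those tested, with 1.32% higher and 1.81% lower. Of the 10 members 8 were tested, 1 of them passed, as lower, and Fgf2 and Fgf8 lay under the filter. The libraries of the genotypes did not overlap in 4 of the 8 tested members, against 25.1% of all tested genes (7.06% higher and 18.0% lower), and in 5 of all 10. In sorted pools, fewer cells of a type and less RNA per cell cannot be told apart.

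**Figure D1:**
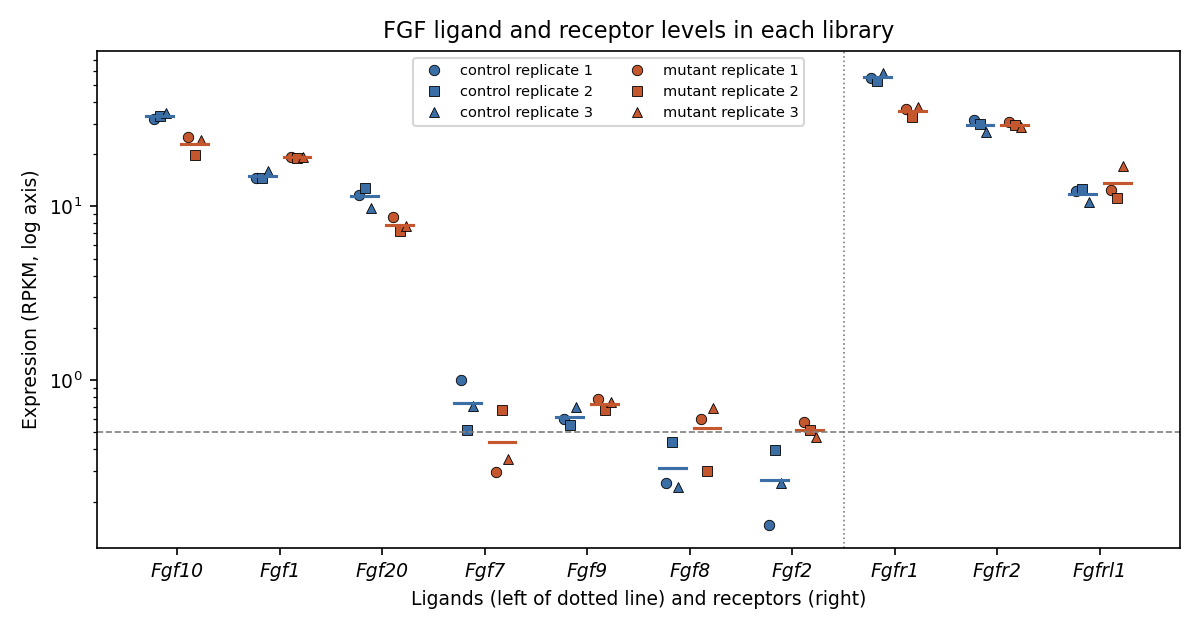
Expression in RPKM (log axis) of the 7 ligands and 3 receptors, with 1 point per library, a bar at each genotype's mean of 3 libraries and a dashed line at the filter of 0.5 RPKM. Fgfr1 and Fgf10 are lower in all 3 mutant libraries than in any control, Fgf1 is higher, and Fgf7, Fgf8, Fgf9 and Fgf2 lie near the filter.

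Levels of the members spanned a wide range. RPKM, being per length, allows a rough comparison between genes, with limits given below for Fgf2 and Fgf20. Averaged over the 6 libraries, Fgfr1 lay above 96.6% of all entries, Fgfr2 above 93.9%, Fgf10 above 93.5% and Fgf1 above 88.2%. Fgfrl1 lay above 84.6% and Fgf20 above 80.9%, whereas the other 4 ligands lay above 48.8% (Fgf2) to 52.8% (Fgf9). In controls the order of mean levels was Fgfr1, Fgf10, Fgfr2, Fgf1, Fgfrl1, Fgf20, Fgf7, Fgf9, Fgf8 and Fgf2. Neighbours in that order were apart in the control libraries except Fgfrl1 and Fgf20, Fgf7 and Fgf9, and Fgf8 and Fgf2, whose libraries overlapped. In mutants Fgfr2 lay above Fgf10 in every library, the reverse of controls.

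Fgf10, the most abundant ligand, maps to chromosome 13, 118714699 to 118792573 on the plus strand (mm10, as all positions here). Its RPKM was 31.7, 33.1 and 34.4 in controls and 25.1, 19.8 and 24.1 in mutants. All mutant libraries lay below all controls, with mutant replicate 2 lowest. Means were 33.1 ± 1.35 and 23.0 ± 2.8 (SD, n = 3 each), a log2 fold change of -0.52 (SE 0.13, 95% interval -0.81 to -0.23) with a limma adjusted p of 0.0575, so the difference did not pass. It passed in 2 of 18 alternatives, voom on whole reads (limma adjusted p 0.0219, in a fit that called 5.09% of all tested genes) and the fit without control replicate 3 (0.0449), and the range over alternatives was 0.0219 to 0.234. With median-of-ratios scaling the log2 fold change was -0.4 (limma adjusted p 0.0905).

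Fgf20 lies on chromosome 8, 40279166 to 40286953 on the minus strand, and encodes one of the ligands known to keep progenitors undifferentiated. Its RPKM was 11.6, 12.8 and 9.85 in controls and 8.73, 7.19 and 7.68 in mutants. The lowest control, replicate 3, was still above the highest mutant, replicate 1. The mean went from 11.4 ± 1.5 to 7.87 ± 0.786 (SD, n = 3 each), a log2 fold change of -0.51 (SE 0.15, 95% interval -0.83 to -0.18) with a limma adjusted p of 0.0984. Without control replicate 3 that p was 0.0297, and over all 18 alternatives it ranged up to 0.31. With median-of-ratios scaling the log2 fold change was -0.39 (limma adjusted p 0.137). Exons of Fgf20 overlap Micu3 on the other strand by 202 bases, and Micu3 was at 20.6 to 34.7 RPKM in controls and 21.3 to 26.5 in mutants. How strand was handled in counting is not known, so reads from the stretch shared by both genes cannot be told apart.

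Fgf9, the related ligand with a like role in progenitors, was near the filter. It lies on chromosome 14, 58070671 to 58112854, on the same chromosome as the deleted cluster but 56.9 Mb away. Its RPKM was 0.598, 0.548 and 0.696 in controls and 0.774, 0.67 and 0.744 in mutants. Mutant replicate 2 fell within the control range. The log2 fold change was 0.14 (SE 0.2, 95% interval -0.29 to 0.57) with a limma adjusted p of 0.696, on 236 reads in all controls and 259 in all mutants. Fgf20 was present at 14.2 to 23.4 times the level of Fgf9 in controls and 10.3 to 11.3 times in mutants.

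Fgf1, on chromosome 18 from 38838672 to 38929470 on the minus strand, encodes a ligand that binds all the signalling FGF receptors. Its RPKM was 14.6, 14.5 and 15.9 in controls and 19.2, 19.1 and 19.2 in mutants. Every mutant library was above every control, and the 3 mutants were almost equal. The mean was 27.7% higher, 15.0 ± 0.775 against 19.2 ± 0.0684 (SD, n = 3 each), with a log2 fold change of 0.34 (SE 0.12, 95% interval 0.08 to 0.61) and a limma adjusted p of 0.161. That p stayed above 0.05 in all 18 alternatives, from 0.0527 to 0.427. Median-of-ratios scaling gave a log2 fold change of 0.47.

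Fgf7, a ligand known from stromal cells, passed the filter through its higher control mean, 0.742 RPKM, while its mutant mean of 0.441 was under the filter. It lies on chromosome 2, 126034658 to 126091185. Its RPKM was 1.0, 0.518 and 0.705 in controls and 0.297, 0.673 and 0.353 in mutants, which is 50 to 79 reads per control library and 24 to 50 per mutant library. The groups overlapped, since mutant replicate 2 exceeded control replicate 2. The log2 fold change was -0.4 (SE 0.24, 95% interval -0.93 to 0.12) with a limma adjusted p of 0.368. Of 11 markers of the renal interstitium, the stromal neighbours of progenitors, none passed the test, none was at 0, and their summed RPKM was 308 to 511 in controls and 408 to 475 in mutants. Aldh1a2 made up most of it, and without that gene the sums were 111, 163 and 66.0 in controls and 124, 202 and 177 in mutants. The part of these cells in the Fgf7 values was not tested.

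Fgf8 and Fgf2 had means under 0.5 RPKM and did not enter the genome-wide test. Fgf8, which marks progenitors on the way to nephrons, lies on chromosome 19, 45736491 to 45742941. It had 10, 21 and 9 reads in controls and 24, 11 and 25 in mutants, or 0.257, 0.441 and 0.243 RPKM against 0.601, 0.3 and 0.687. Mutant replicate 2 lay among the controls. The mean difference was 0.216 RPKM (0.313 ± 0.11 and 0.529 ± 0.203, SD, n = 3 each), with a two-sided exact permutation p of 0.2. Summed RPKM of 9 markers of committed progenitors and renal vesicles, the early nephrons, was 97.1 to 117 in controls and 107 to 135 in mutants, with none at 0, and 2 of the 9 were higher in mutants by the limma test. The part of these cells in the Fgf8 values was not tested.

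Fgf2, a ligand that leaves cells without a classical secretion signal, lies on chromosome 3, 37348477 to 37410106. It had 3, 10 and 5 reads in controls and 12, 10 and 9 in mutants, or 0.146, 0.398 and 0.256 RPKM against 0.571, 0.518 and 0.469. The lowest mutant was above the highest control in RPKM but not in reads, where these were 9 and 10. The mean difference was 0.252 RPKM (0.267 ± 0.126 and 0.519 ± 0.0507, SD, n = 3 each), with a two-sided exact permutation p of 0.1, the smallest that 3 against 3 libraries can give. The exact 95% interval on the ratio of read rates, 1.88, ran from 1.02 to 3.58 and covers counting error only. The table counted Fgf2 over 694 bases, against 5973 in its longest annotated transcript. The gene overlaps Nudt6 on the other strand by 640 exon bases, and Nudt6 itself was at 1.26 to 1.93 RPKM in controls and 2.06 to 2.8 in mutants, also apart. Reads of Fgf2 and Nudt6 from the overlap cannot be told apart, so the Fgf2 values may hold reads of Nudt6.

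Fgfr1, on chromosome 8 from 25518759 to 25575718 on the plus strand, encodes the main FGF receptor of the kidney mesenchyme together with Fgfr2. Its RPKM was 55.2, 52.9 and 58.4 in controls and 36.2, 32.7 and 37.6 in mutants. The groups stood well apart, the lowest control exceeding the highest mutant. The mean fell from 55.5 ± 2.75 to 35.5 ± 2.54 (SD, n = 3 each), a log2 fold change of -0.64 (SE 0.12, 95% interval -0.91 to -0.37) with a limma adjusted p of 0.0156. The reads behind it were 25961 in controls and 15237 in mutants. The call held in 13 of 18 alternatives and the log2 fold change ranged from -0.68 to -0.46 over them. The limma adjusted p was 0.0699 after quantile normalization, 0.0815 without control replicate 1, and 0.0578, 0.102 and 0.0511 without mutant replicates 1, 2 and 3. With median-of-ratios scaling, where 3.24% of tested genes passed, the log2 fold change was -0.51 and the call held (limma adjusted p 0.0327).

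Fgfr2 lies on chromosome 7, 130162451 to 130266808 on the minus strand. The table holds 1 value per gene, so the receptor's splice forms, which differ in the ligands they bind, were not separated. Its RPKM was 31.3, 29.8 and 27.0 in controls and 30.5, 29.6 and 28.8 in mutants, and the mutant values lay inside the control range. Means were 29.4 ± 2.16 and 29.7 ± 0.851 (SD, n = 3 each), or 0.02 on the log2 scale (SE 0.12, limma adjusted p 0.953). The 95% interval of -0.25 to 0.28 holds for the unscaled RPKM and does not cover the choice of scaling. The log2 fold change was 0.14 with median-of-ratios scaling (limma adjusted p 0.571) and 0.17 after quantile normalization (0.423).

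Fgfrl1, on chromosome 5 from 108694229 to 108706950, encodes the receptor without a kinase domain that is required for nephron formation. Its RPKM was 12.2, 12.6 and 10.6 in controls and 12.4, 11.2 and 17.2 in mutants. Mutant replicate 3 stood above all others and the groups overlapped. The log2 fold change was 0.17 (SE 0.17, 95% interval -0.19 to 0.54) with a limma adjusted p of 0.573, and without mutant replicate 3 it was -0.01.

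**Figure D2:**
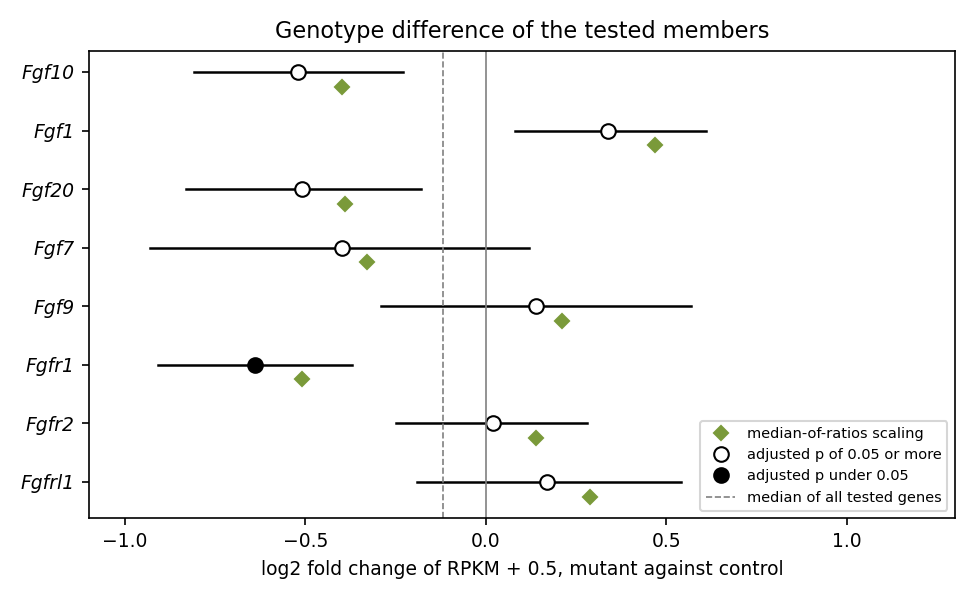
Log2 fold change (mutant against control, on RPKM + 0.5) of the 8 tested members with 95% intervals as horizontal lines, the limma call as filled or open circles and the value after median-of-ratios scaling as diamonds. Fgfr1 is the 1 filled circle, at -0.64, and each diamond lies to the right of its circle.

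Fgfr1 made up less of the receptor RNA in every mutant library than in any control. The ratio of Fgfr1 to Fgfr2 RPKM was 1.77, 1.78 and 2.16 in controls and 1.19, 1.1 and 1.3 in mutants. The groups did not overlap, and the log2 difference was -0.66 (1.9 ± 0.225 against 1.2 ± 0.1, SD, n = 3 each, two-sided exact permutation p 0.1, the smallest possible). A ratio within a library does not depend on depth scaling, but it shows unequal change only. It was 1 of 3 ratios computed, all chosen after values were seen, so it is a description. Of the summed RPKM of the 3 receptors, Fgfr1 made up 57.4% ± 2.96 in controls and 45.1% ± 0.636 in mutants (SD, n = 3 each). The share of Fgfr2 was 30.4% and 37.8%, and that of Fgfrl1 12.2% and 17.1%, with no overlap for any of the 3. The sum itself, of unscaled RPKM, was 98.8, 95.4 and 96.0 in controls and 79.1, 73.4 and 83.7 in mutants.

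Among the ligands, the share of Fgf10 in the summed RPKM was lower and that of Fgf1 higher in every mutant library than in any control. Fgf10 made up 53.8% ± 1.4 in controls and 43.9% ± 2.46 in mutants, and Fgf1 24.4% ± 1.17 and 36.8% ± 2.48 (SD, n = 3 each). The ratio of Fgf10 to Fgf1 was 2.18, 2.28 and 2.17 in controls and 1.31, 1.04 and 1.25 in mutants, so the libraries of the genotypes lay far apart. Fgf20 made up 18.6% and 15.0%, and each of the other 4 ligands 1.39% or less on average. These shares too are parts of a whole, so a change in one moves the others. The summed ligand level was 59.9, 62.4 and 62.1 RPKM in controls and 55.3, 48.3 and 53.2 in mutants. This sum is of unscaled RPKM, in which the median log2 fold change of all tested genes was -0.12.

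**Figure D3:**
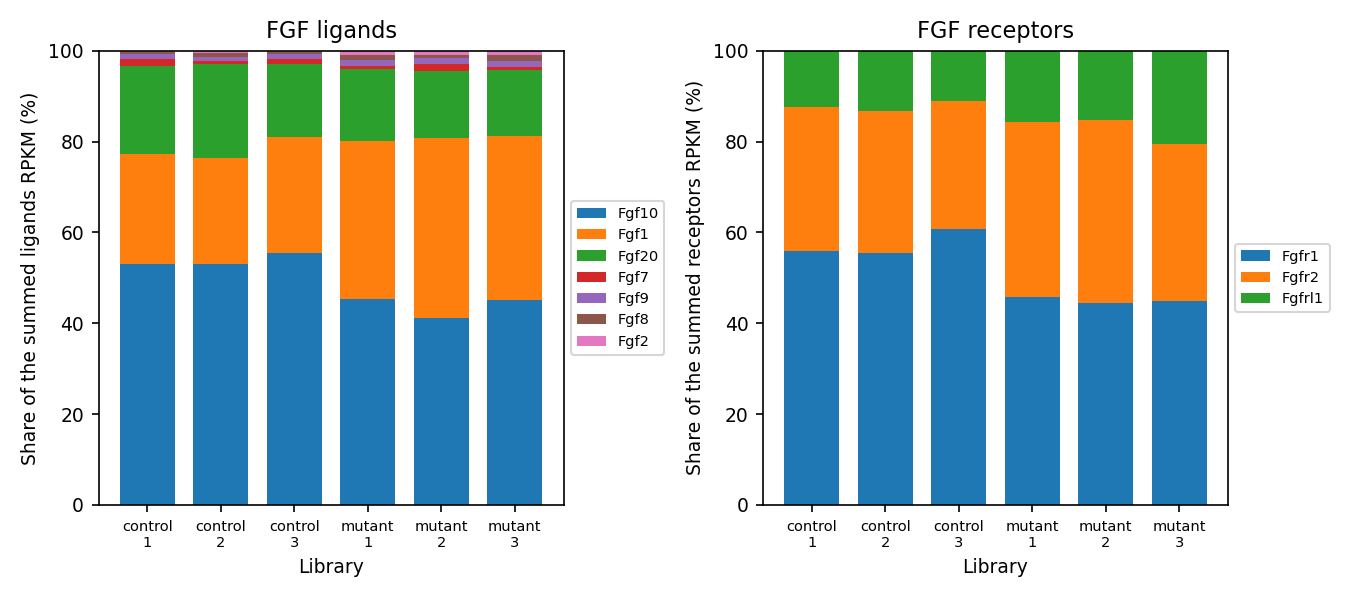
Share in percent of each ligand in the summed ligand RPKM (left) and of each receptor in the summed receptor RPKM (right), 1 stacked bar per library. Fgf1 takes 34.8% to 39.6% of the ligand sum in mutants against 23.3% to 25.6% in controls, and Fgfr1 44.5% to 45.8% of the receptor sum against 55.5% to 60.8%.

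Because the summed progenitor markers were also lower in mutants, member levels were set against that sum in each library, as a description added after the data were seen. Fgfr1 was at 7.53%, 7.52% and 7.66% of the sum in controls and 5.98%, 5.95% and 5.84% in mutants. It was thus lower in mutants on this scale too, with no overlap. Fgf10 was at 4.33%, 4.71% and 4.52% in controls and 4.15%, 3.61% and 3.73% in mutants, also apart. Fgf20 overlapped on this scale, at 1.29% to 1.82% in controls and 1.19% to 1.44% in mutants. Fgf1 was at 1.99% to 2.09% in controls and 2.98% to 3.48% in mutants. Fgfr2 was at 4.26%, 4.23% and 3.54% in controls and 5.04%, 5.39% and 4.47% in mutants, so its groups were apart here although they overlapped in RPKM. Eya1 alone gave 280, 257 and 315 RPKM of the sum in controls and 240, 213 and 245 in mutants. Without Eya1 the sums were 454, 447 and 448 in controls and 365, 336 and 400 in mutants. Members were not set against the sum without Eya1. The lower marker sum raises mutant values of every gene on this scale. Of the 8 tested members 6 were apart, 4 higher and 2 lower in mutants, against 28.3% of all tested genes (24.9% higher and 3.45% lower).

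**Figure D4:**
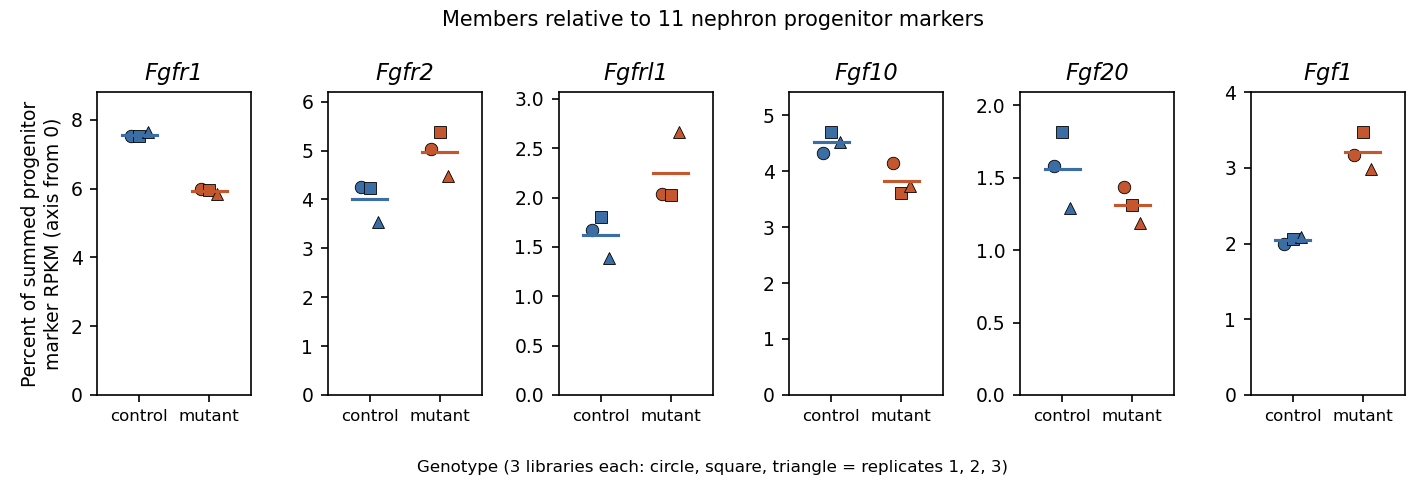
RPKM of 6 members as a percent of the summed RPKM of 11 nephron progenitor markers, 1 point per library (circle, square and triangle for replicates 1, 2 and 3) with a bar at each mean and each vertical axis starting at 0. Fgfr1 and Fgf10 are lower in every mutant library, Fgf20 overlaps between genotypes, and Fgf1, Fgfr2 and Fgfrl1 are higher in every mutant library.

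Markers of other cells were low, except for those of the interstitium and early nephrons given above. Macrophage and leukocyte markers summed to 2.6, 2.85 and 1.31 RPKM in controls and 7.65, 6.95 and 9.14 in mutants. Of these 8 genes 4 were tested and 3 were higher by the limma test, Fcer1g was the most abundant, and Tyrobp and C1qb were at 0 in some library. Without Fcer1g the sums were 1.82, 2.13 and 0.606 RPKM in controls and 5.24, 4.65 and 6.61 in mutants. Genes of this list may thus have passed the filter only through their mutant values, which limits the count of 3 of 4. The part of these cells in the Fgf1 or Fgfr1 values was not tested. The sums overlapped between genotypes for ureteric bud (30.0 to 43.7 RPKM, highest Hoxb7, with Wnt9b, Elf5 and Krt8 at 0 in some library). They overlapped for endothelium (2.54 to 4.82, highest Emcn, none at 0) and erythroid cells (6.89 to 13.2, highest Alas2, none at 0) as well. Only 6 of 12 ureteric bud, 2 of 5 endothelium and 4 of 5 erythroid genes were tested, and none of these passed.

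The FGF genes other than the members and receptors were scarce in these libraries. Of these 15 genes, not all of which encode secreted ligands, 2 passed the filter, Fgf13, which encodes an intracellular FGF homologue, and Fgf18. The 3 controls averaged 0.968 ± 0.0576 RPKM for Fgf13 and the 3 mutants 0.59 ± 0.148 (SD), with a limma adjusted p of 0.26. Fgf18 was at 0.841 and 0.947 RPKM, with a limma adjusted p of 0.837. The other 13 had means of 0.306 RPKM or less, and Fgf6 and Fgf21 were listed at 0 in all 6 libraries.

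None of the 5 tested genes among 9 other receptors, co-receptors and binding proteins passed. Flrt1, a membrane protein that binds FGF receptors, averaged 14.3 ± 4.62 RPKM over controls and 9.55 ± 1.27 over mutants (SD, n = 3 each), a log2 fold change of -0.52 with a limma adjusted p of 0.187. Control replicate 3 was at 19.6 RPKM and the other 2 controls at 11.6 each, and without it the log2 fold change of Flrt1 was -0.28. The related Flrt2 was at 8.24 and 10.4 RPKM, which is 0.33 on the log2 scale (limma adjusted p 0.316). The remaining kinase receptors were scarce next to Fgfr1 and Fgfr2, with Fgfr3 at 1.07 RPKM in controls and 0.897 in mutants and Fgfr4 under the filter at 0.263 and 0.406.

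Sulf1 rose among the heparan sulfate enzymes, which build and edit the sugar chains that FGF ligands need for receptor binding. It encodes a sulfatase that removes sulfate groups from heparan sulfate outside the cell. Its RPKM was 5.5, 5.6 and 5.89 in controls and 11.4, 9.68 and 10.8 in mutants, with a wide gap between the groups. The mean went from 5.66 ± 0.201 to 10.6 ± 0.89 (SD, n = 3 each), a log2 fold change of 0.85 (SE 0.14) with a limma adjusted p of 0.00565. That p was under 0.05 in all 18 alternatives, the highest being 0.0436. Sulf2, the other sulfatase of the list, named after its values were seen, had 61.6, 63.7 and 69.8 RPKM in controls and 42.3, 43.4 and 54.7 in mutants. Its groups were apart in the opposite direction to those of Sulf1, and its level was higher in both genotypes. The log2 fold change was -0.48 (SE 0.14), and it did not pass (limma adjusted p 0.0945, range over alternatives 0.0375 to 0.318, passing with voom alone). Of the 16 genes 12 were tested, 1 was higher and none lower, and the list's median log2 fold change was 0.01 against -0.12 over all tested genes.

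In the signal transduction list, from receptor adaptors to MAP and PI3 kinases, all 25 genes were tested and none passed. Of these 22 had a log2 fold change below 0, as did 68.1% of all tested genes, and 17 lay below the median of all tested genes. The list's median was -0.24 against -0.12 over all tested genes. After median-of-ratios scaling the list's median was -0.12 against -0.012. The lowest p values belonged to Plcg1, a phospholipase bound by the receptors, and Grb2, an adaptor that links them to Ras. Plcg1 averaged 8.11 ± 0.39 RPKM over controls and 5.51 ± 0.588 over mutants (limma adjusted p 0.0812), and Grb2 at 11.4 ± 2.83 and 7.59 ± 1.09 (SD, n = 3 each, limma adjusted p 0.145).

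Spred3 fell among the 13 feedback and response genes, of which 12 were tested. It encodes an inhibitor of signalling from Ras to MAP kinase. Its RPKM was 3.16, 2.63 and 4.04 in controls and 1.18, 1.12 and 1.72 in mutants, with no overlap. The mean went from 3.28 ± 0.715 to 1.34 ± 0.333 (SD, n = 3 each), a log2 fold change of -1.03 (SE 0.2) with a limma adjusted p of 0.0181. The call was lost in 4 of 18 alternatives, with limma adjusted p values of 0.115 with no filter, 0.0569 without control replicate 1, and 0.091 and 0.123 without mutant replicates 1 and 2. The list's median log2 fold change was -0.41 against -0.12 over all tested genes. After median-of-ratios scaling it was -0.29 against -0.012. Of its 12 tested genes 11 were below 0, against 68.1% of all tested genes, and 9 were below the median of all tested genes. Over the 5 lists, 2 of 56 tested genes passed, against 3.13% of all tested genes.

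**Figure D5:**
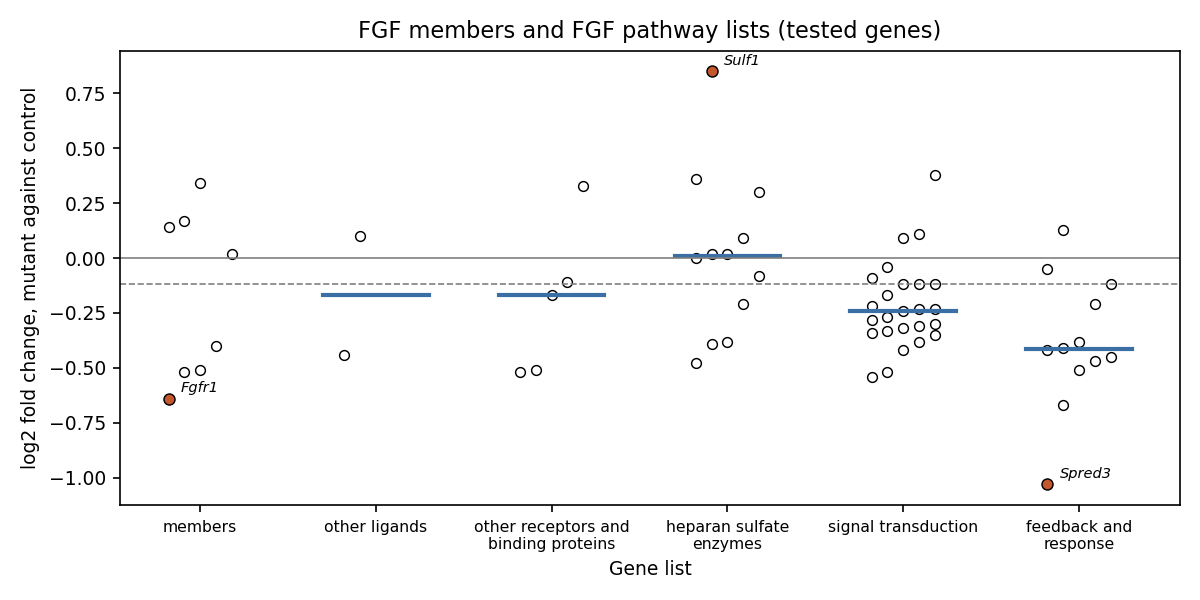
Log2 fold change (mutant against control) of the tested members and of the tested genes in 5 FGF pathway lists, 1 point per gene, filled where the limma adjusted p was under 0.05, with a bar at the median of each pathway list and a dashed line at the median of all tested genes. Sulf1, Spred3 and Fgfr1 are the filled points, and the feedback and response list has the lowest median, -0.41.

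Patterns across the 6 libraries were compared between each tested member and 105 tested genes of the pathway and marker lists, by Pearson's r of log2(RPKM + 0.5). The points share genotype group and depth, so the values are descriptions. Fgfr1 was most like Meox1, a progenitor transcription factor gene (r = 0.98), and Etv5, an FGF-responsive transcription factor gene (0.97). Fgf20 was most like Dusp6, a MAP kinase phosphatase gene (0.99), and Crym (0.95), and Fgf10 like Il17rd, an FGF inhibitor gene (0.97), and Cbl (0.97). Fgf1 was most like Sulf1 (0.98) and the macrophage marker Fcer1g (0.97). For Fgf9 the nearest were Itga8 (0.93) and Pik3ca (0.86), for Fgfrl1 Ext2 (0.9) and C1qc (0.86), for Fgf7 Fgf13 (0.82) and Meox1 (0.65), and for Fgfr2 Extl2 (0.78) and Ccnd1 (0.74).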

How the data were processed

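RNA was amplified (Ovation RNA-Seq System V2 kit) and sequenced with paired reads, per the labels' protocols. Expression values of 27179 Entrez Gene entries are RPKM, computed and deposited by the authors in 1 table. Per the submitters' processing notes, the build was mm10 and the tools included FastQC and limma. The word subread stands in the column names, per the file headers. For the counting tool, annotation and strand, the entry is: not given in the sources used here. Symbols were matched for 25275 entries from RefSeq (GRCm38.p6). Depth, counted gene length and whole reads were recovered from the grid on which the deposited RPKM values fall, with a tolerance of 0.1 read, and came to 99.65% to 99.7% of depth. A single read in 1 kb of gene equals 0.0277 to 0.0362 RPKM, depending on the library. Whether a read or a read pair was counted is not known.

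The genotype comparison used limma 3.58.1 (R 4.3.3), with a mean-variance trend, on log2(RPKM + 0.5) of genes whose mean was at least 0.5 RPKM, two-sided, with Benjamini-Hochberg adjustment at 0.05. A fold change on this scale understates the change of low genes. Members under the filter were compared by exact permutation over libraries. Read ratios have exact 95% binomial intervals. The fit was tested on simulated data. Seed sites were searched in the longest 3′ UTR of each gene in GENCODE M21 with Python 3.11.15. Named genes were the 10 members, the genes that passed in each of 5 pathway lists or otherwise the 2 of lowest p, the highest gene and the genes at 0 of 8 marker lists (1 list is not reported here), Six2, Mir17 and the 2 genes most like each tested member. Overlapping genes, Mir17hg, Xist, Sulf2, Fgfr3 and Fgfr4 were named after values were seen. The members and lists were chosen with earlier results of these data known. Alternatives were the pseudocount, filter, scaling, trend, array weights, replicate block, threshold, leaving out each library and the kind of seed site. Fits with voom on whole reads, depth without mitochondrial ribosomal RNA and robust variance moderation, and the receptor ratio without each library, were added after the data were seen.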

Additional observations from a re-analysis of the deposited data

How the results depend on the processing

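The number of genes passing was 422 and moved to 143 with no filter on low values, 685 with voom on whole reads and 730 at a threshold of 0.1, and it ranged from 148 to 1083 when each library was left out. Of these 422, 178 were higher and 244 lower, a split that became 282 and 154 with median-of-ratios scaling, 264 and 163 after quantile normalization and 268 and 149 with depth taken without mitochondrial ribosomal RNA. The number of FGF members passing was 0 with quantile normalization, 2 with voom (Fgf10 and Fgfr1) and 3 at a threshold of 0.1 (Fgf10, Fgf20 and Fgfr1), and 0 to 3 when each library was left out. Pathway list genes passing numbered 1 with no filter, 6 with voom and 1 to 6 when each library was left out. The cause of these changes was not tested. Log2 fold changes that turned sign were Fgfr2 at -0.04 without control replicate 3 and -0.01 without mutant replicate 1, Fgfrl1 at -0.01 without mutant replicate 3, and Fgf18 at -0.02 with array weights and -0.06 without mutant replicate 3, none of which passed the test in any alternative. The highest values with a library left out were 0.06 for Fgfr2, 0.3 for Fgfrl1 and 0.3 for Fgf18. The mean difference of Fgf2 ranged from 0.192 to 0.318 RPKM and that of Fgf8 from 0.137 to 0.33 when each library was left out, and the log2 ratio of Fgfr1 to Fgfr2 from -0.73 to -0.57. The labels give both genotypes replicate numbers 1 to 3 but do not say that these pair the pools. Deviations of same-numbered libraries correlated at 0.0526, 0.157 and 0.153, each library best with its own number. Pairs of unlike numbers correlated at -0.146 to -0.00627. Deviations within a genotype sum to 0, so positive same-number values force negative values among the unlike pairs. Whether pools of the same number shared a processing step was not tested. With the replicate number as a block 393 genes passed, 1 member (Fgfr1, limma adjusted p 0.0271) and 2 pathway genes. With 0 to 31 reads per library, precision for Fgf2, Fgf8 and Mir17 is limited by depth.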

Other observations

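Tested genes within 500 kb of each member were looked at as values outside the comparisons. None of them passed the limma test for any of the 10 members, against 3.13% of all tested genes. There were 15 such neighbours of Fgfr1, 12 of Fgf8, 9 of Fgfrl1 and 1 to 8 of each of the others. With so few neighbours, a share of 3.13% would give few or no calls near most members. For Fgfr1, which did pass, the 15 neighbours had a median log2 fold change of -0.07, and 4 of them were above 0. The 6 tested neighbours of Fgf1, which had a higher mean in mutants, had a median log2 fold change of -0.26 and none was above 0. Over all tested genes the median was -0.12, and 68.1% were below 0.

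Little of the members' transcript sequence is shared with other genes. The share of a member's 31-base words found in another gene's transcripts was 0 for Fgf20 and Fgfrl1, 2.25% for Fgfr1, 2.69% for Fgfr2, most often with Ctbp2, and at most 3.29%, for Fgf2. Exons annotated to Ctbp2 in GENCODE overlap Fgfr2 by 314 bases. By RefSeq positions Ctbp2 was not among the tested neighbours of Fgfr2 within 500 kb. Ctbp2 was at 10.8 to 11.4 RPKM in controls and 9.77 to 10.8 in mutants.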
